A study of Rattus norvegicus with 2 samples.

Results

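The genes of hyaluronan synthesis and binding followed here are 8 of the 25399 genes in the deposited gene list, taken by symbol, with earlier results of these data known. They are the synthases Has1 and Has2, the hyaluronidases Hyal1 and Hyal2, the receptor Cd44 and the matrix proteins Vcan, Tnfaip6 and Ptx3, and each symbol matched 1 row of the list. The apical part of the ventricles of Sprague-Dawley rats aged 1 to 3 days, with both sexes pooled, was dissociated with trypsin. Cells were then enriched on a Percoll gradient for intrinsic cardiac adrenergic (ICA) cells, catecholamine-producing cells that reside in the heart, and plated. The cultures received saline (control) or lipopolysaccharide (LPS, an outer membrane component of Gram-negative bacteria that signals through TLR4) at 1 µg/mL for 2 h. Each condition gave 1 library with the 10X Genomics 3′ v2 chemistry, so every comparison below is between 2 libraries, has no replicate check and includes any difference in their handling.

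Hyaluronan is a long, unbranched glycosaminoglycan of the extracellular matrix. It is polymerized at the plasma membrane from UDP-glucuronic acid and UDP-N-acetylglucosamine by the HAS enzymes, cut by hyaluronidases, and bound on the cell surface by CD44. In the matrix it is bound by the proteoglycan versican (Vcan) and by TSG-6 (Tnfaip6), which transfers the heavy chains of inter-alpha-inhibitor onto hyaluronan, whereas pentraxin 3 (Ptx3) binds TSG-6 and these heavy chains and so takes part in cross-linking the matrix. In heart, hyaluronan and versican form part of the embryonic cardiac jelly, and Has2 is required for the formation of the endocardial cushions.

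The control library held 11531 cells with a median of 12479 UMIs (unique molecular identifiers, each counting 1 captured transcript) per cell, and the LPS library held 12689 cells with a median of 9432. The authors sorted the cells into 11 clusters. They named clusters 0, 1 and 7 Fibroblast, cluster 3 ICA and Cardiomyocyte, clusters 4 and 5 Endothelial and cluster 6 Macrophages, and left clusters 2, 8, 9 and 10 without a name. Cluster 0 alone held 57.2% of control cells and 55.4% of LPS cells, although the labels describe both libraries as ICA cells. In cluster 3 the ICA markers Dbh and Ddc reached 25.4 and 49.6 CPM (UMIs per 1000000 UMIs of the cluster) in control and 24.8 and 56.9 in LPS, and Th, the other ICA marker, had 0 UMIs in both. In cluster 3 the 7 cardiomyocyte markers that were found summed to 10278 CPM in control and 10852 in LPS, against 161 to 189 in cluster 0. In control, the macrophage markers summed to 2160 CPM in cluster 6 and 14.6 in cluster 0, the endothelial markers to 1892 and 1542 in clusters 4 and 5 and 90.5 in cluster 0, and the mural markers to 3630 in cluster 2 and 932 in cluster 0. As a check of the treatment label, the NF-kB inhibitor gene Nfkbia was at 74.6 CPM over all control and 592 CPM over all LPS cells, and the chemokine gene Cxcl1 at 134 and 2321. A total of 194 cell barcodes occurred in both libraries, and leaving them out moved no log2 ratio of these 8 genes in clusters 0 to 6 by more than 0.0875.

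Levels are UMIs summed over the cells of a cluster and given as CPM. Intervals in parentheses are at 95% and hold counting error only. They are exact Poisson intervals for levels, exact conditional intervals for ratios and Clopper-Pearson intervals for percentages of cells. A gene was called higher or lower where its LPS and control levels were at least 2-fold apart among genes with at least 50 UMIs over both libraries of the cluster, and calls were made for clusters 0 to 6. UMIs come from 3′ ends, so levels are not scaled by transcript length, but levels of different genes are not compared here. In cluster 0, the main fibroblast cluster, 5 of the 7 genes that passed the minimum of UMIs were called higher in LPS (Has1, Has2, Cd44, Tnfaip6 and Ptx3) and 0 were called lower, where 3.44% of all tested genes were called higher and 9.1% lower. Vcan and Hyal2 passed the minimum and were not called, and Hyal1 was too rare to pass it. The median log2 ratio of these 7 genes was 1.74, against −0.13 over all genes tested.

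The same 5 genes were called higher in cluster 1, fibroblasts in which the 4 markers of cycling cells summed to 475 CPM in control against 44.9 in cluster 0, where 3.23% of genes were called higher and 5.09% lower. In clusters 2 to 5 Has1 fell below the minimum, and Has2, Cd44, Tnfaip6 and Ptx3 were the 4 of 6 called higher in each. The shares of all genes called higher and lower there were 2.86% and 4.28% in cluster 2, 1.7% and 1.69% in cluster 3, 2.65% and 4.08% in cluster 4, and 4.24% and 4.56% in cluster 5. In the macrophages of cluster 6, Has2 also fell below the minimum, and Cd44, Tnfaip6 and Ptx3 were the 3 of 5 called higher, beside 4.82% of genes called higher and 12.3% called lower. In none of these 7 clusters was any of the 8 genes called lower. The median log2 ratio over all genes tested was −0.12 in cluster 2 and −0.31 in cluster 6, and within 0.1 of 0 in clusters 1, 3, 4 and 5. Among genes with at least 50 UMIs in each library, the median gene used for the alternative scaling lay 0.09 log2 units lower in LPS in cluster 0 and 0.19 lower in cluster 6. Scaled to it, the cluster 6 ratios of Cd44, Tnfaip6, Ptx3, Vcan and Hyal2 were 4.43, 13.4, 3.48, 1.29 and 0.651.

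**Figure D1:**
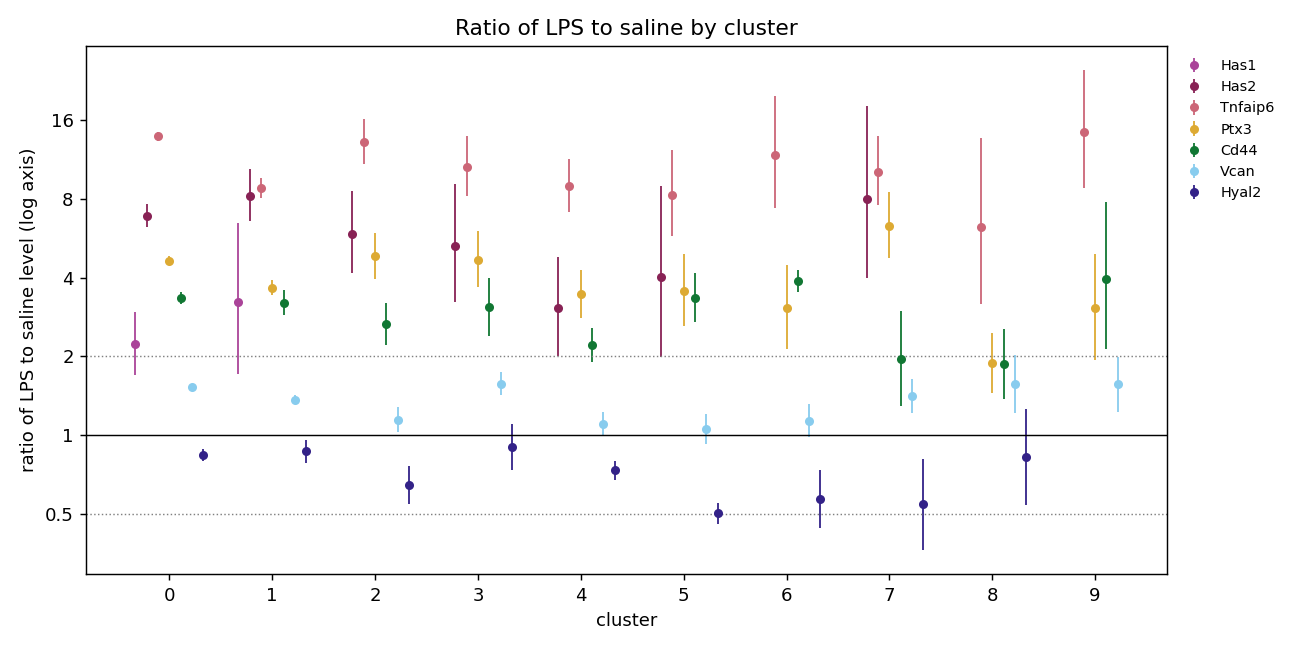
Ratio of the LPS to the control (saline) level of each gene, on a log axis, in clusters 0 to 9. Points are ratios with 95% intervals from counting error, shown where a gene had at least 50 UMIs over both libraries, the solid line is 1 and the dotted lines mark 2-fold higher and lower. Tnfaip6 lay highest in every cluster, between 6.25 and 14.4, and Hyal2 lay below 1 in all 9 clusters where it is shown. The Tnfaip6 interval overlapped that of Has2 in clusters 1, 3, 5 and 7, and that of Ptx3 in cluster 7.

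Tnfaip6 and Ptx3, whose products bind each other in the hyaluronan matrix, were both called higher in LPS in clusters 0 to 6, as was Cd44. The stretches before the starts of these genes are shown because each was called higher in all these clusters. RefSeq promoter windows on the build GRCr8 were found for 7 of the 8 genes and not for Has2. The windows run from 250 bases before to 50 bases after the start, and the 250 bases before it are printed for Tnfaip6 (chr3:56911148-56911397, plus strand), Ptx3 (chr2:152797313-152797562, plus strand), Cd44 (chr3:109699425-109699674, minus strand) and, as a gene that was not higher, Hyal2 (chr8:117121552-117121801, plus strand). Capitals mark matches on either strand to GGG and CC with any 5 bases between them (NF-kB-type), TGANTCA (AP-1-type) or TTGCNNAA (C/EBP-type).
Tnfaip6: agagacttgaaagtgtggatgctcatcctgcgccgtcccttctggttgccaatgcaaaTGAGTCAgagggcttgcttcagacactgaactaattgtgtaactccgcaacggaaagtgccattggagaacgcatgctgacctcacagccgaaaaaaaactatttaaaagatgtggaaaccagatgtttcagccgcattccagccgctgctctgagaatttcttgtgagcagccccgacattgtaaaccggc
Ptx3: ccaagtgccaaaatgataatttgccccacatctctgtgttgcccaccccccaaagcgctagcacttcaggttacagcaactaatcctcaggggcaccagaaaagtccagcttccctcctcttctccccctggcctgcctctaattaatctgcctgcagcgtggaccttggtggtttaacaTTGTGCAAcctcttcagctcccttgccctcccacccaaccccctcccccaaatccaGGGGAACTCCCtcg
Cd44: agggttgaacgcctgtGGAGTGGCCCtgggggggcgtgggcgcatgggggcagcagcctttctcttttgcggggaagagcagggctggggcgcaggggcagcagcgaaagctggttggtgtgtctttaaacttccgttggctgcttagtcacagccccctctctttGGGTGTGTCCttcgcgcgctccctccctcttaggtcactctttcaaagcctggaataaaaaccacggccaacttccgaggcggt
Hyal2: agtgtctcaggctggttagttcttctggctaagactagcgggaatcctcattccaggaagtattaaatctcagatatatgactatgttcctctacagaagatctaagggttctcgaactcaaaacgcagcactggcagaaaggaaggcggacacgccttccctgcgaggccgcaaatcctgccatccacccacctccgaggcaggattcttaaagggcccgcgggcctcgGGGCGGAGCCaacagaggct

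The Tnfaip6 stretch held 1 AP-1-type match, which begins 192 bases before the start and reads TGAGTCA. The Ptx3 stretch held 1 C/EBP-type match, 70 bases before the start, and 2 overlapping NF-kB-type matches that share the run GGGGAACTCCC, 14 bases before it. The Cd44 stretch held 2 NF-kB-type matches and that of Hyal2 held 1. Of the other windows, the first of the 2 Vcan windows held 1 NF-kB-type match, and those of Has1 and Hyal1 held no match. Of all 33469 windows, 47.3% held an NF-kB-type, 7.33% an AP-1-type and 10.6% a C/EBP-type match, so the first of these is common. A match of letters is a description and not a binding site, and Hyal2, which was higher in no cluster with calls, held one as well.

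Has2 encodes the synthase that makes long hyaluronan chains, and it was at a low level in control and higher in LPS in every cluster with calls where it passed the minimum. In cluster 0 it had 470 UMIs in control and 2642 in LPS, that is 5.19 CPM (4.73 to 5.68) and 35.8 CPM (34.5 to 37.2), a ratio of 6.90 (6.25 to 7.62). In the cycling fibroblasts of cluster 1 the levels were 3.75 and 30.9 CPM, a ratio of 8.24 (6.60 to 10.4). Both fibroblast ratios therefore lay above that of the endothelial cells of cluster 4, where Has2 went from 2.79 to 8.53 CPM with a ratio of 3.06 (2.00 to 4.78). In the other endothelial cluster, cluster 5, the ratio was 4.02 (1.99 to 8.96), an interval that overlapped both fibroblast intervals. Those of clusters 2 and 3, at 5.90 (4.15 to 8.58) and 5.30 (3.22 to 9.12), overlapped them as well. The highest LPS level, 49.3 CPM (38.8 to 61.8), was in cluster 7, a small fibroblast cluster in which the 4 interferon-response markers summed to 2472 CPM in LPS, and its interval did not reach that of cluster 0. Clusters 0 and 1 together with cluster 7 held 69.6%, 16.4% and 1.97% of all Has2 UMIs of the LPS library, where they held 57.8%, 15.8% and 1.19% of all UMIs.

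To compare libraries of unequal depth, each cell was thinned to 3000 UMIs. Has2 was then detected in 1.48% of cluster 0 cells in control (1.21 to 1.81) and in 8.80% in LPS (8.15 to 9.49). Unthinned, with medians of 12968 and 9822 UMIs a cell, it was detected in 5.97% and 27.5%. The 618 LPS cells with a thinned Has2 UMI held 677 such UMIs, and no thinned cell of this cluster held more than 3 in either library. In cluster 6 Has2 went from 5 UMIs in control to 30 in LPS, 1.61 and 12.1 CPM, a ratio of 7.52 (2.89 to 24.8). It was detected there in 1.78% (0.580 to 4.10) and 8.25% (5.36 to 12.0) of unthinned cells and in 1.07% (0.221 to 3.09) and 2.07% (0.763 to 4.45) of thinned cells, so the intervals overlapped only after thinning.

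Has1, the other synthase followed here, had 113 UMIs among all control and 221 among all LPS cells. In cluster 0 it had 82 UMIs in control and 149 in LPS, at 0.906 CPM (0.721 to 1.12) and 2.02 CPM (1.71 to 2.37), a ratio of 2.23 (1.69 to 2.96). In cluster 1 the counts were 14 and 38 UMIs and the ratio was 3.24 (1.71 to 6.47). Outside the fibroblast clusters Has1 had at most 11 UMIs in a cluster and library. In cluster 2 it had 2 UMIs in control and 11 in LPS, a ratio of 6.13 (1.34 to 56.9), and in cluster 8 it had 0 and 5, at least 1.76-fold higher in LPS against the limit of 3 UMIs that a count of 0 allows. In cluster 3 it had 4 UMIs in each library, and in cluster 4 it had 5 in control and 4 in LPS, so that no difference was detectable at this depth in these 2 clusters. Has3, which encodes the remaining synthase and comes from the wider pathway list, had 77 UMIs in control and 73 in LPS in cluster 0, a ratio of 1.16 (0.833 to 1.62), and in cluster 4 it went from 6.20 to 3.18 CPM, a ratio of 0.513 (0.325 to 0.795).

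**Figure D2:**
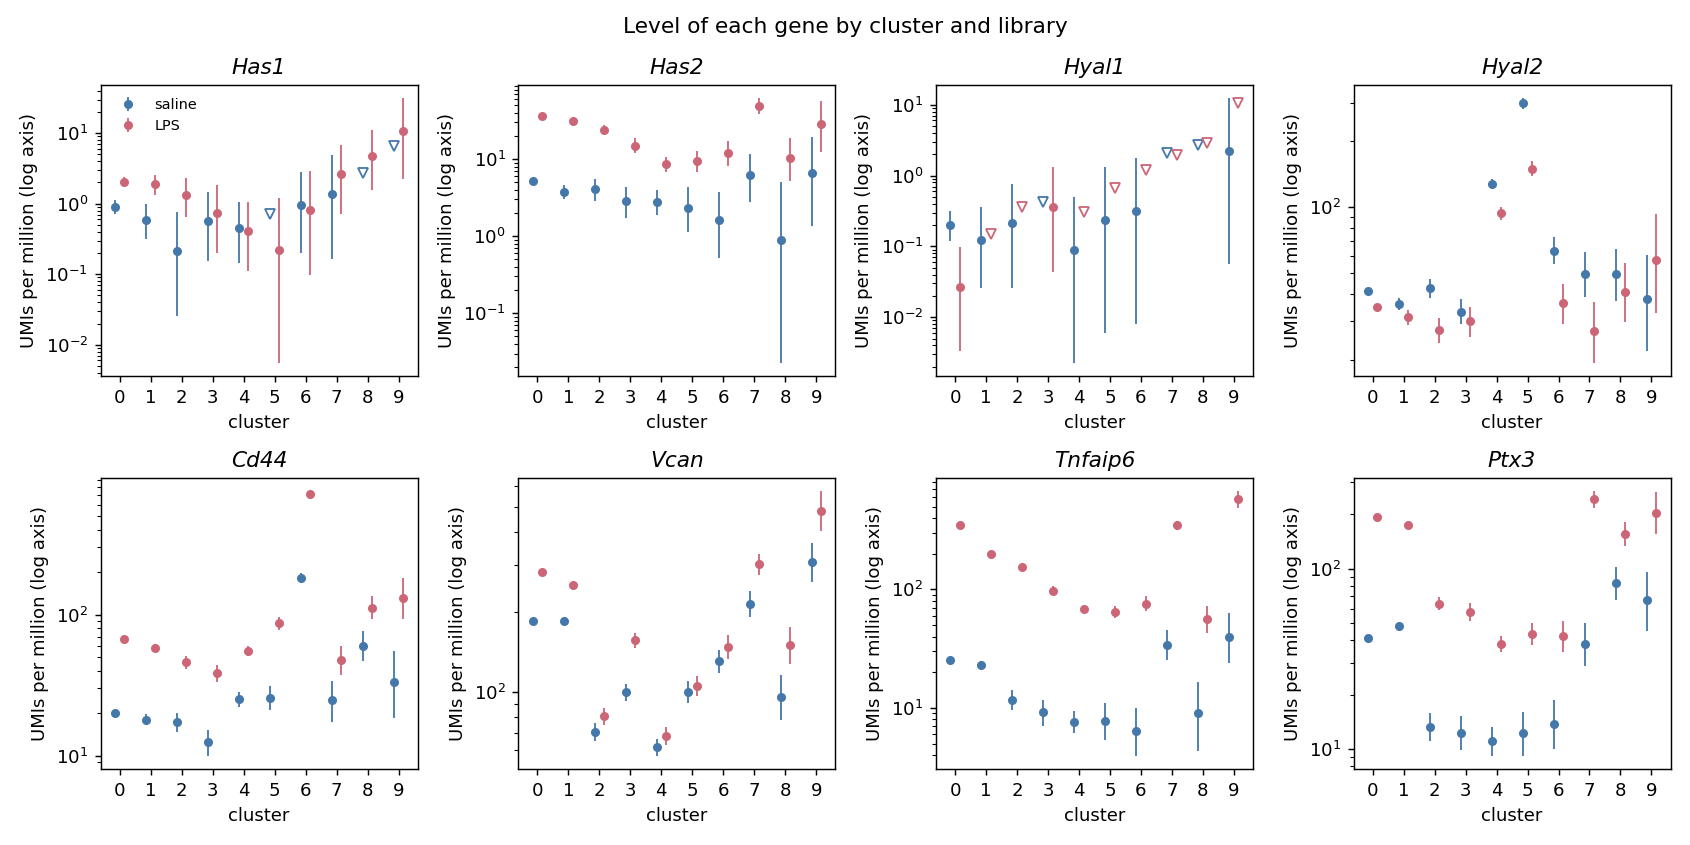
Level of each of the 8 genes (CPM, log axis) in clusters 0 to 9 of the control (saline) and the LPS library. Points carry 95% Poisson intervals from counting error, and open triangles show the level of 3 UMIs where a cluster had 0. Cluster 10, with 16 control and 26 LPS cells, is not drawn. Cd44 stands highest in cluster 6, Hyal2 in clusters 5 and 4, and Vcan in cluster 9.

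Of the hyaluronidases, Hyal2, a cell-surface enzyme that cuts long hyaluronan into fragments, was lower in LPS by less than 2-fold. In the endothelial cells of cluster 5, where its level was highest, it went from 299 CPM (282 to 316) to 150 CPM (139 to 162), a ratio of 0.503 (0.457 to 0.552), or 1.99-fold lower, just short of a call, and 3 of 7 alternative settings took it past 2-fold. In the endothelial cells of cluster 4 it went from 128 to 93.7 CPM, a ratio of 0.733 (0.674 to 0.797). Cluster 6 had 63.3 and 36.2 CPM, a ratio of 0.572 (0.441 to 0.738), and cluster 2 had 42.4 and 27.4 CPM, a ratio of 0.646 (0.547 to 0.762).

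Fibroblasts of clusters 0 and 1 showed a smaller difference in Hyal2. Cluster 0 had 41.3 and 34.7 CPM, a ratio of 0.839 (0.798 to 0.883), and cluster 1 a ratio of 0.867 (0.781 to 0.962). The small fibroblast cluster 7, however, went from 72 to 41 UMIs, or 49.3 to 27.0 CPM, a ratio of 0.547 (0.363 to 0.813). In cluster 3 the interval of the ratio, 0.734 to 1.10, included 1. Of the 9 clusters with at least 50 Hyal2 UMIs, 7 had an interval below 1 and 2 an interval that included 1. The interval of cluster 5 did not overlap that of cluster 0, 1, 3 or 4. The control order of levels began with cluster 5, then cluster 4, with intervals that did not overlap, and then cluster 6. In thinned cells Hyal2 was detected in 53.4% of cluster 5 in control (48.0 to 58.7) and in 38.8% in LPS (34.2 to 43.5), where cluster 0 had 11.3% and 9.98%. Unthinned, these percentages were 86.9 and 66.1 in cluster 5, whose medians were 10172 and 8998 UMIs a cell, and 42.7 and 29.6 in cluster 0. Clusters 4 and 5 held 17.2% and 15.3% of all control Hyal2 UMIs with 7.29% and 2.78% of all control UMIs.

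Hyal1, the lysosomal hyaluronidase, was close to the limit of detection, with 27 UMIs in all control and 4 in all LPS cells. Of these, 18 control and 2 LPS UMIs were in cluster 0, at 0.199 CPM (0.118 to 0.314) and 0.0271 CPM (0.00328 to 0.0980), and the ratio was 0.136 (0.0153 to 0.569). In every other cluster both counts were at or under 3 UMIs, and no ratio is given.

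Cd44, the main cell-surface receptor for hyaluronan, was higher in LPS in all 10 clusters that had at least 50 of its UMIs, with ratios from 1.86 to 3.97. Macrophages held the highest level in both libraries. In cluster 6 Cd44 had 570 UMIs in control and 1772 in LPS, that is 183 CPM (168 to 199) and 713 CPM (680 to 747), a ratio of 3.90 (3.54 to 4.29). The control and the LPS intervals of cluster 6 overlapped with those of no other cluster. With 1.95% of all UMIs of the LPS library, the macrophages held 18.2% of its Cd44 UMIs.

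Fibroblasts of cluster 0 went from 20.3 to 67.6 CPM of Cd44, a ratio of 3.34 (3.16 to 3.53), and the endothelial cells of cluster 5 from 25.9 to 86.8 CPM, a ratio of 3.35 (2.71 to 4.18). The other endothelial cluster, cluster 4, had a control level of 25.2 CPM, close to that of cluster 5, but 55.6 CPM in LPS and a ratio of 2.21 (1.91 to 2.56), and the intervals of these 2 ratios did not overlap. Cluster 8, in which the mesothelial markers summed to 538 CPM in control against 25.1 in cluster 0, was at 60.3 CPM in control, below clusters 6 and 10 only, and at 112 CPM in LPS, with a ratio of 1.86 (1.37 to 2.56). Thinned macrophages had Cd44 in 44.5% of cells in control (38.6 to 50.5) and in 85.9% in LPS (81.3 to 89.7), and thinned cluster 0 cells in 5.08% and 16.9%. Unthinned, Cd44 was detected in 81.9% and 97.3% of macrophages, whose medians were 8846 and 6900 UMIs a cell, and in 20.7% and 43.4% of cluster 0. The median macrophage held 0 thinned Cd44 UMIs in control and 2 in LPS.

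Vcan, which encodes the large proteoglycan that binds hyaluronan through its Link domain, had ratios above 1 that were the smallest of these genes in fibroblasts. In cluster 0 it went from 185 CPM (183 to 188) to 284 CPM (280 to 288), a ratio of 1.53 (1.5 to 1.56). The ratio was 1.36 (1.31 to 1.42) in cluster 1, and 1.57 (1.42 to 1.74) in cluster 3, where it went from 99.5 to 156 CPM. In the endothelial clusters 4 and 5 and in macrophages the ratios were 1.10 (0.991 to 1.23), 1.06 (0.924 to 1.21) and 1.14 (0.984 to 1.31), with intervals that include 1. Scaled to the median gene, the ratio was 1.15 (1.03 to 1.28) in cluster 4, 1.09 (0.951 to 1.24) in cluster 5 and 1.29 (1.12 to 1.49) in cluster 6, so in clusters 4 and 6 the interval leaves 1 under this scaling. The highest level in both libraries was in cluster 9, at 309 CPM in control and 483 CPM in LPS, a cluster of 66 control and 58 LPS cells in which 14.0% and 12.6% of the UMIs of the median cell were mitochondrial. These Vcan levels were 167% and 170% of those of cluster 0. The 9 fibroblast markers of cluster 9 spanned 71.0% to 191% of cluster 0 in control and 37.4% to 216% in LPS. Its cardiomyocyte markers summed to 1969 CPM in control and 2056 in LPS, against 189 and 161 in cluster 0. Cluster 9 thus carried markers of both cell types, at medians of 5675 and 3957 UMIs a cell. In thinned cells of cluster 0, Vcan was detected in 39.2% in control and 51.4% in LPS, and unthinned in 82.5% and 84.5%.

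Tnfaip6 encodes TSG-6, a secreted hyaluronan-binding protein of inflamed tissue, and had the highest ratio in each of clusters 0 to 9 among those of the 8 genes with at least 50 UMIs there. Its interval overlapped that of Has2 in clusters 1, 3, 5 and 7 and that of Ptx3 in cluster 7. In the cycling fibroblasts of cluster 1 it had 548 UMIs in control and 4037 in LPS, that is 22.8 CPM (20.9 to 24.8) and 200 CPM (194 to 207), a ratio of 8.79 (8.03 to 9.62). In cluster 0 the levels were 25.3 and 351 CPM, and the interval of the ratio, 13.3 to 14.5, lay above that of cluster 1. The control levels of these clusters, in contrast, differed by little, with overlapping intervals of 24.3 to 26.4 and 20.9 to 24.8.

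In cluster 2, where mural markers summed to 3630 CPM in control, Tnfaip6 went from 11.6 to 154 CPM, a ratio of 13.2 (10.9 to 16.2). In cluster 3 it went from 9.18 to 97.2 CPM, a ratio of 10.6 (8.17 to 13.9), and in cluster 5 from 7.77 to 64.4 CPM, a ratio of 8.29 (5.77 to 12.3). The small clusters 7 and 9 reached 349 and 576 CPM in LPS, and the interval of cluster 9, 490 to 672, lay above that of cluster 0. The Tnfaip6 level of cluster 9 was 164% of that of cluster 0, where the 9 fibroblast markers spanned 37.4% to 216%. Cluster 0 held 76.8% of the Tnfaip6 UMIs of the LPS library with 57.8% of its UMIs, and 70.8% of those of the control library with 59.3%.

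Within cluster 0 the cells differed widely in Tnfaip6. Thinned, it was detected in 7.21% of them in control (6.60 to 7.86) and in 51.7% in LPS (50.6 to 52.9), and unthinned in 24.6% and 79.4%. The median thinned LPS cell held 1 UMI and the highest 34, and the tenth of LPS cells with the most held 44.8% of the Tnfaip6 UMIs. In cluster 1 the LPS share was 36.1% (33.6 to 38.6) after thinning, below that of cluster 0, and 77.6% without it.

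Ptx3, the gene of the long pentraxin 3, was higher in LPS in each of the 10 clusters with at least 50 of its UMIs. In cluster 0 it had 3737 UMIs in control and 14171 in LPS, that is 41.3 CPM (40.0 to 42.6) and 192 CPM (189 to 195), a ratio of 4.65 (4.49 to 4.82). In cluster 1 the control level was higher and the LPS level lower, 47.7 and 175 CPM, with a ratio of 3.66 (3.43 to 3.92). Cluster 7 had the highest ratio, 6.29 (4.74 to 8.49), from 38.4 to 241 CPM. In macrophages Ptx3 went from 13.8 to 42.2 CPM, a ratio of 3.06 (2.13 to 4.47).

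Among these 10 clusters the lowest Ptx3 ratio was that of cluster 8, at 1.89 (1.45 to 2.46). Its control level, 82.8 CPM (66.7 to 102), was the highest of all clusters, with an interval that overlapped that of cluster 9, and its LPS level of 156 CPM was below that of cluster 0. In thinned cells of cluster 0, Ptx3 was detected in 11% in control (10.3 to 11.8) and in 33.7% in LPS (32.6 to 34.8), and unthinned in 34.6% and 63.8%. The median thinned LPS cell held 0 Ptx3 UMIs and the highest 41, at a mean of 0.574.

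**Figure D3:**
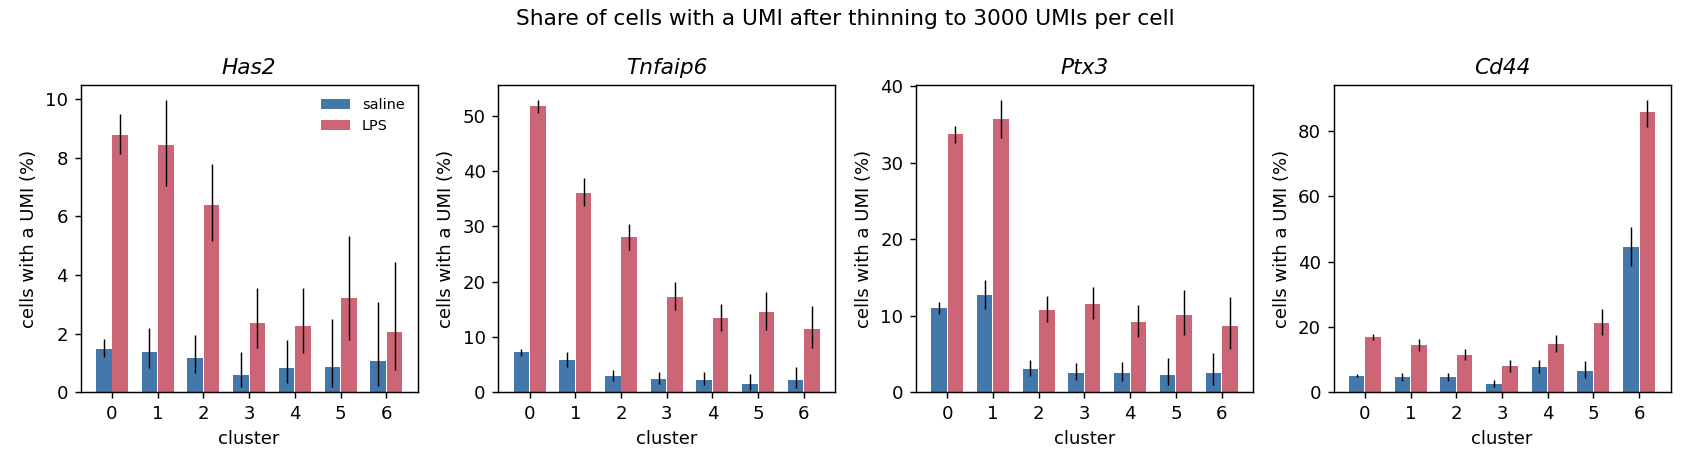
Share of cells (%) with a UMI of Has2, Tnfaip6, Ptx3 and Cd44 in clusters 0 to 6 after each cell was thinned to 3000 UMIs, for the control (saline) and the LPS library. Bars start at 0 and error bars are 95% Clopper-Pearson intervals. Tnfaip6 and Ptx3 shares stand highest in the fibroblast clusters 0 and 1, and the Cd44 share in the macrophages of cluster 6, at 44.5% and 85.9%.

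Each of the 8 genes except Hyal1 had UMIs in all of clusters 0 to 6 in the LPS library, so no cluster could be taken as one that lacks them, and fluid in a droplet carries free RNA. Levels outside the fibroblasts were therefore set beside those of the 9 fibroblast markers, each as a percentage of its level in cluster 0 of the same library. In LPS the markers lay at 16.7% to 36.5% in cluster 4, at 22.7% to 43.8% in cluster 6 and at 18.3% to 53.2% in cluster 3. In cluster 5, 8 of them lay between 17.0% and 43.8%, and Mgp was at 110%.

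Tnfaip6 lay at 19.5% (18.0 to 21.0) in cluster 4, 18.4% (16.3 to 20.6) in cluster 5, 21.6% (18.6 to 24.9) in cluster 6 and 27.7% (25.4 to 30.2) in cluster 3. Ptx3 lay at 19.9%, 22.6%, 22.0% and 30.0% in the same order, and Has2 at 23.8%, 26.4%, 33.7% and 41.8%. In these 4 clusters all 3 genes thus stood within the span of the fibroblast markers or, for Tnfaip6 and Ptx3 in macrophages, just below it, and the part of fibroblast RNA in their levels and ratios there was not tested. In cluster 2, where the markers spanned 19.0% to 194%, Tnfaip6 was at 43.9%, Ptx3 at 33.3% and Has2 at 66.8%.

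Cd44 and Hyal2 stood above all 9 markers in clusters 4 and 6. In LPS macrophages Cd44 was at 1054% (998 to 1113) of cluster 0 and Hyal2 at 104% (83.6 to 129), and in cluster 4 they were at 82.2% and 270%. In cluster 5 Cd44, at 128% (116 to 142), and Hyal2, at 433% (397 to 471), also exceeded Mgp. In cluster 3 Hyal2 was at 86.2% (73.2 to 101), and Cd44 was at 56.6%, with an interval of 49.1 to 65.0 that included the highest marker. In cluster 2 both lay inside the span, at 67.9% for Cd44 and 78.9% for Hyal2. The span reached 194% there through Mgp alone, and the next marker, Col1a2, was at 77.7% (68.1 to 88.3). Vcan stood at 52.1% (46.9 to 57.7) in macrophages, above the markers, and at 55.0% (51.3 to 58.9) in cluster 3, where the highest marker was at 53.2%.

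**Figure D4:**
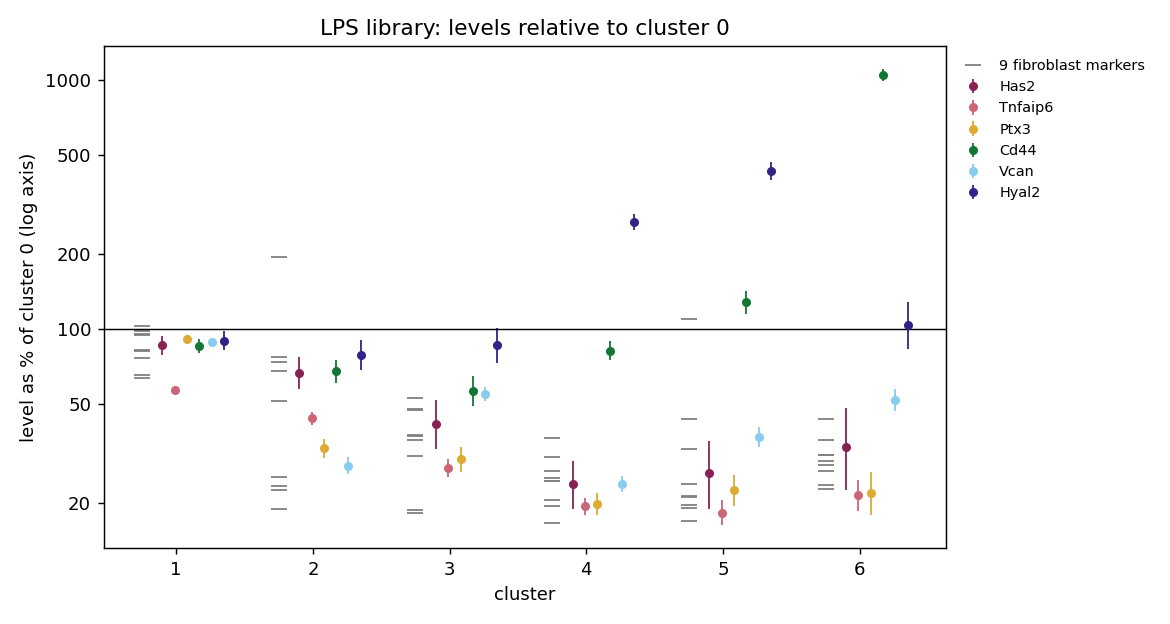
Levels in clusters 1 to 6 of the LPS library as a percentage of the level in cluster 0, on a log axis. Grey dashes are 9 fibroblast markers, and points are Has2, Hyal2, Cd44, Vcan, Tnfaip6 and Ptx3, with 95% intervals from counting error. Tnfaip6 and Ptx3 lie at 18.4% to 30.0% in clusters 3 to 6, among the markers or, in cluster 6, just below them. Cd44 in clusters 5 and 6 and Hyal2 in clusters 4 to 6 lie above 100%, with an interval that includes 100% for Hyal2 in cluster 6.

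The wider list of the pathway named 41 further genes, of which 39 were in the gene list, and it was read for context. In cluster 0, 25 of these 39 passed the minimum of UMIs, 3 were called higher and 4 lower, and their median log2 ratio was −0.23, where 3.44% of all genes tested were called higher and 9.1% lower with a median of −0.13. Among the genes of precursor supply, Ugdh, which makes UDP-glucuronic acid, went from 91.3 to 215 CPM, a ratio of 2.35 (2.29 to 2.42), and Uap1, which makes UDP-N-acetylglucosamine, from 32.5 to 66.3 CPM, a ratio of 2.04 (1.95 to 2.14). Ugdh was called higher in each of clusters 0 to 6 except cluster 1, where its ratio was 1.90, and its highest ratio was in the endothelial cells of cluster 5, from 61.7 to 311 CPM and a ratio of 5.04 (4.41 to 5.77). In cluster 4 the ratio of Ugdh was 3.62 (3.30 to 3.97).

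Among the genes of breakdown, Cemip, which encodes a hyaluronan-binding protein needed for hyaluronan depolymerization in skin fibroblasts, was called lower in clusters 0, 1, 2 and 4. In cluster 0 it went from 17.3 to 6.13 CPM, a ratio of 0.354 (0.318 to 0.393). Of the other receptors, Lyve1, a hyaluronan receptor of lymphatic endothelium and some macrophages, was called higher in clusters 0 to 5. It was most abundant in endothelial cells, from 169 to 366 CPM in cluster 4 with a ratio of 2.17 (2.05 to 2.29), and from 120 to 408 CPM in cluster 5 with a ratio of 3.39 (3.07 to 3.75). Thinned LPS cells held a mean of 1.01 Lyve1 UMIs in cluster 4 and 1.21 in cluster 5. In clusters 0 to 3 the mean was only 0.0246, 0.0251, 0.043 and 0.0259. The part of endothelial RNA in the Lyve1 levels and ratios of clusters 0 to 3 was not tested. Layn, which encodes the hyaluronan receptor layilin, was called lower in clusters 1, 3, 5 and 6, and in cluster 5 it went from 44.7 to 8.79 CPM, a ratio of 0.197 (0.136 to 0.278).

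Of the genes of proteases that cleave versican, Adamts4 had 18 UMIs in control and 164 in LPS macrophages, that is 5.78 and 66.0 CPM, a ratio of 11.4 (7.0 to 19.7), and it was also called higher in clusters 2, 4 and 5. Adamts5 was called lower in clusters 0 and 1, with a ratio of 0.242 (0.185 to 0.312) in cluster 0, and Adamts1 was called lower in clusters 0 and 4, with a ratio of 0.376 (0.327 to 0.431) in cluster 0. Adamts9 was called higher in cluster 5 alone, from 12 to 51 UMIs and a ratio of 3.97 (2.09 to 8.18). The genes of link proteins, which lock hyaluronan to proteoglycans, were mostly under the minimum, and Hapln2 was called lower in cluster 0 with 68 UMIs in control and 21 in LPS. Over clusters 1 to 6 the counts of genes of this list called higher and lower were 1 and 3 of 21, 3 and 1 of 16, 2 and 1 of 18, 3 and 2 of 18, 4 and 1 of 17, and 2 and 1 of 13. The shares of all genes called higher and lower were 3.23% and 5.09% in cluster 1 and 2.86% and 4.28% in cluster 2. They were 1.7% and 1.69% in cluster 3 and 2.65% and 4.08% in cluster 4. In cluster 5 they were 4.24% and 4.56%, and in cluster 6 they were 4.82% and 12.3%. The 1 of 21 called higher in cluster 1 and the 1 of 13 called lower in cluster 6 are close to these shares. The counts called higher in clusters 2 to 6 lie above these shares, each on at most 4 genes. So do the counts called lower in clusters 1 and 4, on 3 and 2 genes. In clusters 2, 3 and 5 only 1 gene each was called lower, too few to set apart from these shares.

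**Figure D5:**
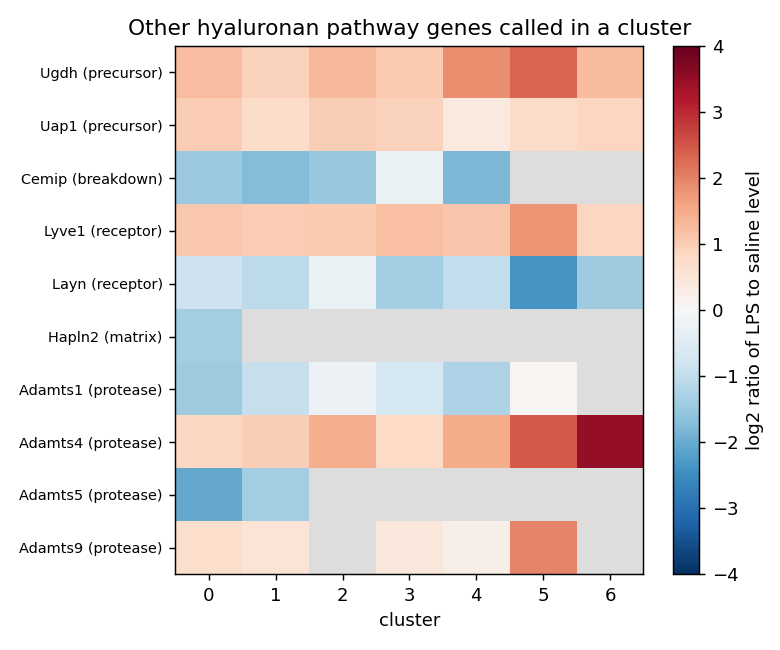
Log2 ratio of the LPS to the control level (colour) in clusters 0 to 6 of the pathway genes, other than the 8 described, that were called in at least 1 of these clusters. Grey cells had fewer than 50 UMIs over both libraries, and the role of each gene is given in brackets. Ugdh and Lyve1 are red in all 7 clusters, Adamts4 is darkest in cluster 6 at 3.51, and Cemip and Layn are blue wherever they are shown.

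Across the cluster and library values, the genes with the most similar pattern to each of the 8 were found by Pearson correlation of log2(CPM + 1) over 20 points, from 10 clusters in both libraries, among 11885 genes. The points share libraries, depth and free RNA, so these values are descriptions. Has2 and Tnfaip6 were each the other's most similar gene, at 0.97. The next for Has2 were Opn3 and Fip1l1, at 0.93 and 0.91, and for Tnfaip6 they were the chemokine gene Cxcl6 and the macrophage growth factor gene Csf1, at 0.93 and 0.92. Ptx3 was closest to Tnfrsf11b (osteoprotegerin) at 0.97, then C1qtnf7 and Pla2g2a. Cd44 was closest to the AP-1 subunit gene Fosl1 at 0.93 and the chemokine genes Ccl3 and Cxcl3. Hyal2 was closest to Prcp, the endothelial nitric oxide synthase gene Nos3 and Myrip, at 0.93, 0.93 and 0.92. Vcan was closest to Pdgfra, itself one of the fibroblast markers, and Fibin, both at 0.91, and then Postn. The genes closest to Has1 were Sowahc, Il11 and Dusp15, at 0.83, 0.83 and 0.82. Those of Hyal1 were 2 unnamed gene models and Brdt, and with 31 Hyal1 UMIs in both libraries these carry little.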

How the data were processed

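Whole-number counts of UMIs per gene and cell were used as deposited. Before deposit the authors had made them with Cell Ranger 2.2.0, per the submitters' processing notes, and had clustered the cells of both libraries jointly with Seurat 2.3.4, whose cluster numbers and names were taken over. The genome build and annotation used for counting are not given in the sources used here, nor is any removal of doublets, and no doublet caller was run. Counts were summed over the cells of each cluster and library and scaled to 1000000 UMIs of that cluster. The 2 control and 8 LPS cells without a cluster were left out. Groups came from the labels, and with 1 library each no test was made. The members and gene lists were chosen with earlier results of these data known.

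A ratio against 0 would be given as a bound from 3 UMIs, and none was given where both counts were at or under 3. For shares of cells each cell was thinned to 3000 UMIs, which left out 79 LPS and 0 control cells. Pathway genes are named where they were called, with at most 10 in a cluster, and the 3 most similar genes of each member were named; Has3 and Gfpt1 were added after their values were seen. Alternatives were other minimums of UMIs, other fold limits, a size factor in place of the total, and the mean of each cell's own CPM. Further alternatives limited the depth and mitochondrial share of the cells, or left out the 8% of cells with the most UMIs. Scripts were tested on simulated data and used Python 3.11.15, numpy 2.4.6, scipy 1.17.1, pandas 2.3.3 and matplotlib 3.10.9. Protein sequences were not analysed here, and a gene of the pathway list is not reported here.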

Additional observations from a re-analysis of the deposited data

Results flagged for a closer look

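Gfpt1, which encodes the first enzyme of the hexosamine route to UDP-N-acetylglucosamine, was higher in LPS in clusters 0 to 5 and lower in the macrophages of cluster 6. Its ratios of LPS to control were 1.82, 1.71, 1.81, 1.35, 1.52 and 1.46 in clusters 0 to 5. In cluster 6 it had 59 UMIs in control and 27 in LPS, a ratio of 0.573 (0.350 to 0.919), and relative to the median gene of that cluster the ratio was 0.652 (0.398 to 1.04), an interval that includes 1. With 1 library per condition the difference between clusters was not tested.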

How the results depend on the processing

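No paired analysis was possible because saline and LPS had only a single library each. All 2-fold calls of the 8 genes held in the 7 alternatives that recompute a ratio. Hyal2 in cluster 5, at 1.99-fold, passed the 2-fold limit in 3 of these 7 and in cluster 6 in 1 of 7. Dividing by the median gene of the cluster raised the log2 ratios of cluster 0 by 0.09, to −0.16 for Hyal2, 1.83 for Cd44, 0.71 for Vcan, 3.89 for Tnfaip6 and 2.31 for Ptx3. It also changed the split of calls over all genes of cluster 6 from 308 higher and 786 lower to 377 and 544. The log2 ratio of Vcan in cluster 5 turned to −0.11 in 1 alternative and was not called in any. Of the ratios in clusters 1 to 6, 246 of 252 alternative values stayed inside the interval of the reported one. In cluster 0, 44 alternative values stayed inside and 5 moved outside, all 5 on dividing by the median gene.

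At a 4-fold limit, 3, 2, 3, 3, 1, 2 and 1 of the 8 genes were called in clusters 0 to 6. Those that passed the minimum of UMIs numbered 7, 7, 6, 6, 6, 6 and 5. Of the 12247, 10312, 8930, 8465, 9492, 7824 and 6385 genes tested in these clusters, 320, 186, 120, 71, 115, 152 and 227 were called. With a minimum of 1 UMI, 5 of the 8 genes were called in cluster 6, of which Hyal1 was called lower on 1 UMI in control and 0 in LPS. At this minimum 5046 of all genes were called in cluster 6, and their share of the genes tested is not given. Over all genes, the called numbers in clusters 0 to 6 were 1536, 858, 637, 287, 639, 689 and 1094. They were 2433, 1692, 1513, 947, 1492, 1525 and 2293 with a minimum of 10 UMIs, and 4608, 4100, 3870, 3394, 3796, 4174 and 5046 with a minimum of 1. They were 3264, 2038, 1733, 828, 1788, 1777 and 2530 at 1.5-fold and 320, 186, 120, 71, 115, 152 and 227 at 4-fold. Without thinning or with another thinning depth, 89 of 96 shares of cells moved outside their interval, so shares hold at the stated depth only. Of the 16 lists of similar genes under other measures, 10 changed.

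Depth limits Has1 outside the fibroblasts, Hyal1 everywhere and Has2 in macrophages and in the small clusters 8 to 10. With no replicate, intervals hold counting error and not the spread between cultures.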

Other observations

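Within the LPS cells of cluster 0, thinned to 3000 UMIs, Tnfaip6 was seen in 57.8% (53.8 to 61.7) of the 618 cells with a Has2 UMI and in 51.2% (49.9 to 52.4) of the 6406 cells without one. It was seen in 58.7% (55.8 to 61.5) of the 1188 cells with a Cd44 UMI and in 50.3% (49.0 to 51.6) of the 5836 without. Ptx3 was seen in 32.4% (30.9 to 34.0) of the 3634 cells with a Tnfaip6 UMI and in 35.0% (33.4 to 36.7) of the 3390 without, and these intervals overlap. It was also seen in 30.4% (26.8 to 34.2) of cells with and 34.0% (32.9 to 35.2) of cells without a Has2 UMI, again with overlapping intervals. In the control cells of cluster 0, Tnfaip6 was seen in 10.2% (5.0 to 18.0) of cells with and 7.17% (6.55 to 7.82) of cells without Has2, and in 6.87% (4.40 to 10.1) with and 7.23% (6.60 to 7.90) without Cd44. Ptx3 was seen there in 13.2% (10.3 to 16.6) with and 10.8% (10.1 to 11.6) without Tnfaip6, and in 7.14% (2.92 to 14.2) with and 11.1% (10.3 to 11.9) without Has2. In each of these control pairs the intervals overlap. Ugdh, which makes the precursor that Has2 uses, was seen in LPS in 45.6% (41.7 to 49.7) of cells with and 45.4% (44.2 to 46.6) of cells without a Has2 UMI. In control these shares were 23.5% (15.5 to 33.1) and 23.2% (22.2 to 24.2). Cells of 1 library are not replicates, so these shares describe this library.

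The cells that the authors placed in no cluster held 0 UMIs of the 8 genes in control, in 8394 UMIs of all genes, and in LPS 1 of Cd44, 1 of Vcan and 2 of Tnfaip6 in 24315.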
